A study of Mus musculus with 21 samples.

Results

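Of the 5544 genes in the cortical expression table, 81 were non-coding genes in the sense used here. Their Ensembl identifiers carry a gene type other than protein_coding in GENCODE vM21, the mouse annotation on GRCm38, and they lie on autosomes. Mitochondrially encoded genes (2 non-coding genes), 3 genes on the X chromosome and Gm42418, which lies within the ribosomal RNA sequence of chromosome 17, were left out. The 81 genes comprised 37 small RNA genes, 18 lincRNAs (long intergenic non-coding RNAs, 2 of them annotated as transcripts of bidirectional promoters), 10 processed transcripts, 8 pseudogenes, 6 antisense genes and 2 sense intronic genes, on 18 autosomes. RefSeq held 68 of them and listed 4 as protein-coding: Cct6a, Dbpht2, Zswim6 and Tmem250-ps. Non-coding genes outside the table were not analysed here, and the criterion that left 5544 genes is not given in the sources used here.

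The study compared the cortex of male C57BL/6 mice 24 h after the last session of high-frequency head impact (HF-HI) with that of sham mice, which were handled and anesthetized with isoflurane in the same way and received no impacts. All mice were listed as 12 weeks old, and the deposited column names mark every library as wild type (WT). The labels give the strain as C57BL/6, and the study's methods name the J substrain. There were 11 HF-HI and 10 sham mice with 1 library per mouse, made from total RNA after depletion of ribosomal RNA, so that RNAs without a poly(A) tail were kept. The values are variance-stabilized read counts on a log2 scale, in which 1 unit is a doubling at high counts and low counts are compressed. They are not divided by transcript length, so levels are compared between libraries and not between genes. Genes were called where the Benjamini-Hochberg adjusted p of limma, over all 5544 genes, was under 0.05.

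Non-coding RNAs act without being translated. Small nucleolar RNAs (snoRNAs) guide the cleavage and chemical modification of ribosomal RNA in the nucleolus. Small Cajal body RNAs (scaRNAs) guide the chemical modification of the RNAs of the spliceosome, and most snoRNAs and scaRNAs are cut from introns of host genes. Long non-coding RNAs include scaffolds of nuclear bodies such as Neat1, imprinted transcripts such as Meg3 and Rian, hosts of microRNAs, and transcripts running opposite to a protein-coding gene, and many are abundant in neurons.

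The small RNAs on which the results turn are printed here from the GENCODE transcripts on GRCm38, 5′ to 3′ on the transcribed strand. The first set is the U17 family, box H/ACA snoRNAs required for processing of the ribosomal RNA precursor; the capitals mark the ACA box near the 3′ end. Snora73a (chr4:132352775-132352979, minus strand) and Snora73b (chr4:132352322-132352526, minus strand) are 205 bases long, and Gm26448 (chr9:120129351-120129553, plus strand) lies inside the ribosomal protein gene Rpsa.
Snora73a: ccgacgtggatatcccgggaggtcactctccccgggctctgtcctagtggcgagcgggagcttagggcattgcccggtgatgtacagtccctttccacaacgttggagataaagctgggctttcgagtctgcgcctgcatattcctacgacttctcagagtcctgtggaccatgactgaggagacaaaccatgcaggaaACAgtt
Snora73b: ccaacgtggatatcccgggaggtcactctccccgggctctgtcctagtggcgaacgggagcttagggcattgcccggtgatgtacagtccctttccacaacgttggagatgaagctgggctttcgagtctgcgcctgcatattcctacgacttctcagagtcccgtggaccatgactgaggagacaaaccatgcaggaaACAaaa
Gm26448: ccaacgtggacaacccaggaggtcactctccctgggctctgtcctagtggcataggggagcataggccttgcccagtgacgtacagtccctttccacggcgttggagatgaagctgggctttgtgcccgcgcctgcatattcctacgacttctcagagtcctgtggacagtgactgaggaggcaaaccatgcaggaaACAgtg
Snora73a and Snora73b share 96.59% of aligned positions and differ by G3A, G54A, A111G, T164C, G203A, T204A and T205A, with the base of Snora73a first and positions counted from 1 at its 5′ end. Gm26448 shares 87.80% of aligned positions with each of them.

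The second set is U3, the box C/D snoRNA that pairs with the ribosomal RNA precursor during its first cleavages; the capitals mark a TGATGA match to box C and a CTGA match to box D. Rnu3a lies at chr10:40258467-40258680 on the plus strand. Rnu3b1 (chr11:87443237-87443452, plus strand) is identical over its 216 bases to Rnu3b3, and Rnu3b2 and Rnu3b4, identical to each other, share 99.54% of aligned positions with it.
Rnu3a: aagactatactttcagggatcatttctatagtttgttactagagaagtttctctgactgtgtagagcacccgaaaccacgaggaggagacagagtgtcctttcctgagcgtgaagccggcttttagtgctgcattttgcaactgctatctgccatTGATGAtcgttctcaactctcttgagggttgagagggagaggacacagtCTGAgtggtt
Rnu3b1: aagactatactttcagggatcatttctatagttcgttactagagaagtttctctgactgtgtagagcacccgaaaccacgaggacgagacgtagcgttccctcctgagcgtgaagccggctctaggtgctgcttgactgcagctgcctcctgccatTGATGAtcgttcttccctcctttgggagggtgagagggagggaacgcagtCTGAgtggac
Rnu3a and Rnu3b1 share 85.19% of aligned positions.

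The third set is U2, the spliceosomal RNA that pairs with the branch site of introns; the capitals mark the bases that recognise the branch site. Rnu2-10 (chr11:101658238-101658428, plus strand) is identical to Gm24950, Gm23849 and Gm23971, while Gm24497 lies at chr1:72244213-72244403 on the plus strand.
Rnu2-10: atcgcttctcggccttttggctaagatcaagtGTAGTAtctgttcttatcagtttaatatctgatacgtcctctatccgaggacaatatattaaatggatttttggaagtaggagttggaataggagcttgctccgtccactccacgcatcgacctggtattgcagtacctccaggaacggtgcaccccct
Gm24497: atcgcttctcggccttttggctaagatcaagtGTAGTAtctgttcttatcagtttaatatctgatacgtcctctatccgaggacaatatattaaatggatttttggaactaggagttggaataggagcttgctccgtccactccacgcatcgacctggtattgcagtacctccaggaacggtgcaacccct
These U2 copies differ only by G109C and C186A, with the base of Rnu2-10 first and positions counted from its 5′ end. The near-identity matters for the values, because a read from one copy can align to others and was divided between them by the counting.

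Of the 81 non-coding genes, 47 were called between HF-HI and sham, which is 58.0% against 66.3% over all 5544 genes. HF-HI mice had higher levels of 15 and lower levels of 32, while the shares over all genes were 32.6% higher and 33.6% lower. The median difference of the 81 genes was -0.15 on the log2 scale, beside -0.0086 over all genes. The median size of the difference, regardless of sign, was 0.23 beside 0.16. Without the 4 genes that RefSeq lists as protein-coding, 43 of 77 were called, 14 higher and 29 lower. In 5 of the 81 genes the groups did not overlap, against 13.5% of all genes. These 5 were Malat1, 4632427E13Rik, Cct6a, Snora73b and Gm26448.

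With all libraries and a threshold of 0.05, no small RNA gene was called higher and 19 of 37 were called lower, with a median difference of -0.36. That is 51.4% called, fewer than the 66.3% of all genes (33.6% lower, 32.6% higher). In some other settings, given below, 1 or 2 small RNA genes were called higher. Long non-coding genes (lincRNA, antisense, processed transcript and sense intronic together) split into 11 higher and 12 lower of 36, with a median of 0.0055. Among them, lincRNAs had 6 higher and 6 lower of 18, antisense genes 2 and 2 of 6, processed transcripts 2 and 3 of 10, and sense intronic genes 1 and 1. Pseudogenes had 4 higher and 1 lower of 8, with a median of 0.25. The types were not tested against each other, and the small RNA genes are not independent. Of the 37, 23 match another gene of the table (identity of at least 90%, coverage of at least 50%). For Gm22988 and Gm23262 that match is only their host gene. The 14 small RNA genes without such a match had 9 lower and none higher. They include Gm26448 and Rnu3a, which share 87.80% and 85.19% of aligned positions with Snora73b and Rnu3b1, so they are not all independent either.

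**Figure D1:**
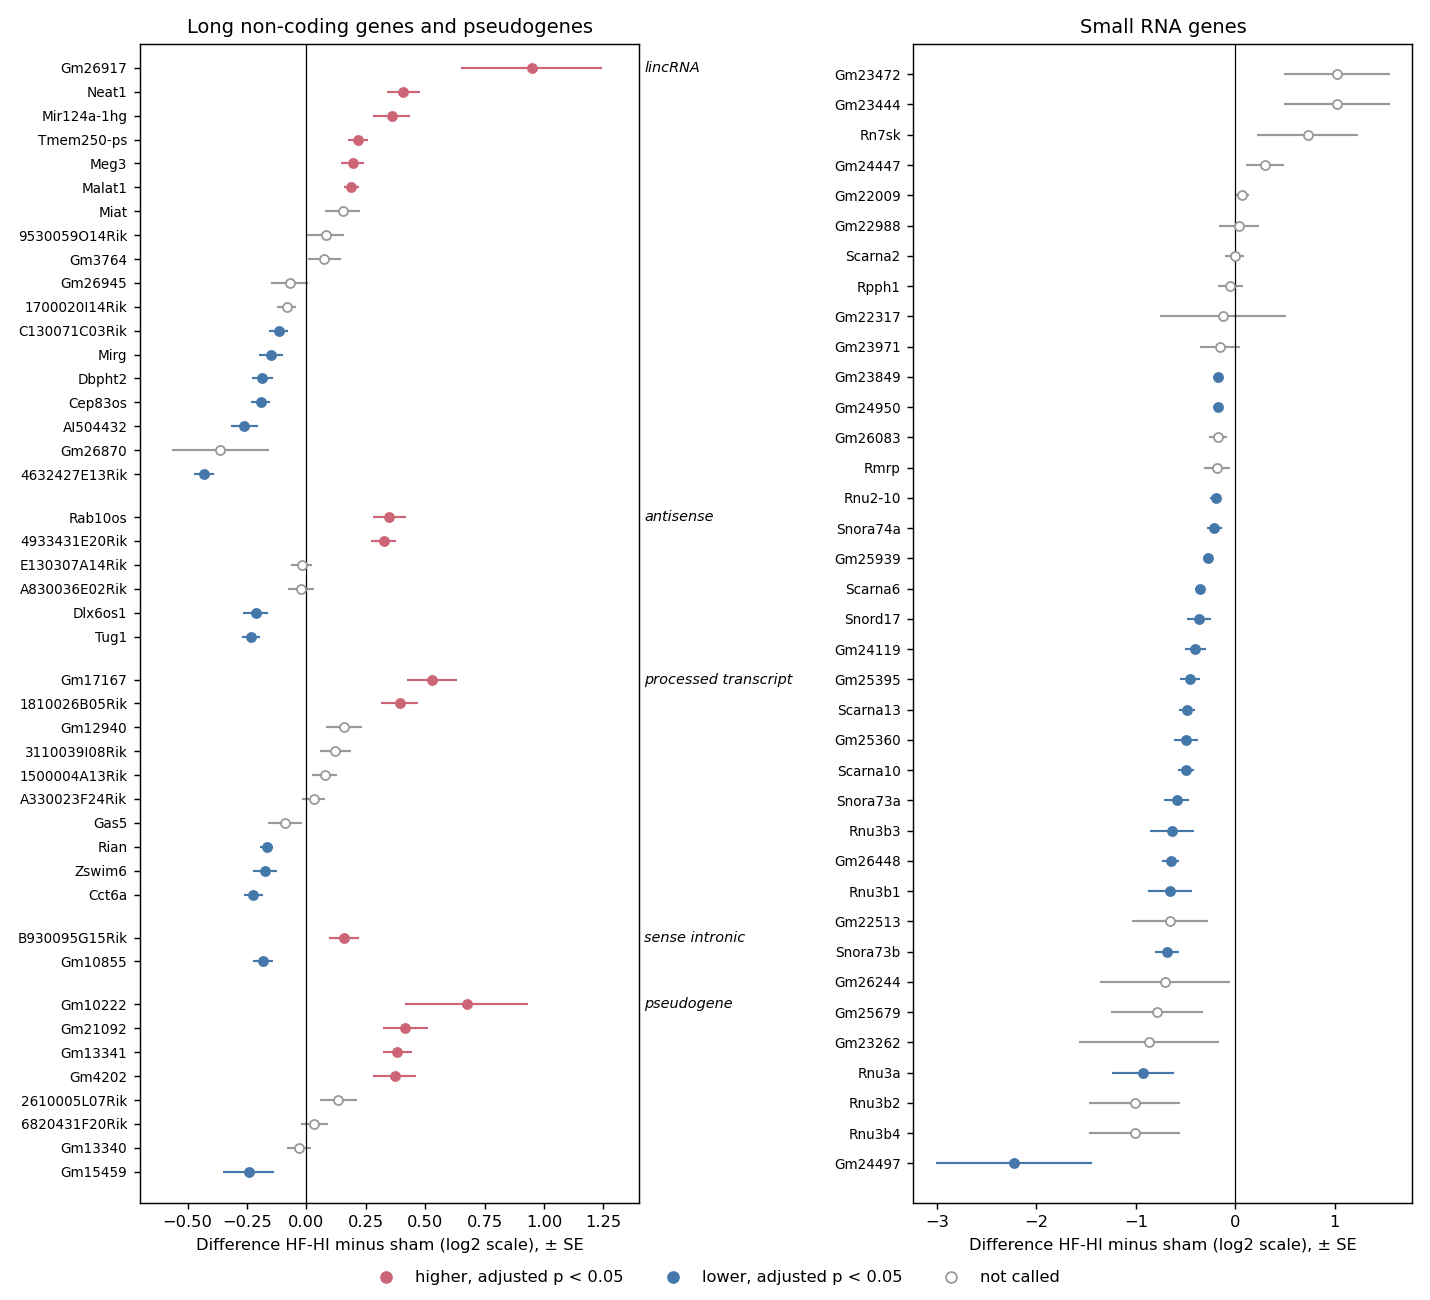
Difference between HF-HI and sham (log2 scale, HF-HI minus sham, with the SE from limma) for all 81 non-coding genes, grouped by type; filled points were called, open points were not. The 19 called small RNA genes all lie left of 0, while called long non-coding genes lie on either side.

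The GC content of transcripts moved with the groups, and values with the GC trend removed are given beside named genes whose call or size it changed. The slope of a library's values on exonic GC content ran from -0.23 to 0.0058 per 10 percentage points in sham and from -0.039 to 0.16 in HF-HI libraries. Over all 5539 genes with a GC content, the difference between groups rose with GC content (Spearman's rho 0.48, across genes measured in the same libraries). Among the 36 long non-coding genes rho was 0.58, and among the 37 small RNA genes it was -0.027. Once each library's GC trend had been removed, 48 of the 81 were called (16 higher, 32 lower), beside 60.2% of all genes (29.2% higher, 31.0% lower). Of the 47 first called, 39 were called again in the same direction. Lower calls among small RNA genes went from 19 to 25 and higher calls from 0 to 1, while lower calls among lincRNAs went from 6 to 3. The trend was fitted over all genes, most of them protein-coding, and small RNA genes did not follow it. Its removal therefore lowers the differences of GC-rich small RNA genes and raises those of GC-poor ones. The added small RNA calls depend on this correction. Whether the GC trend is technical was not tested.

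**Figure D2:**
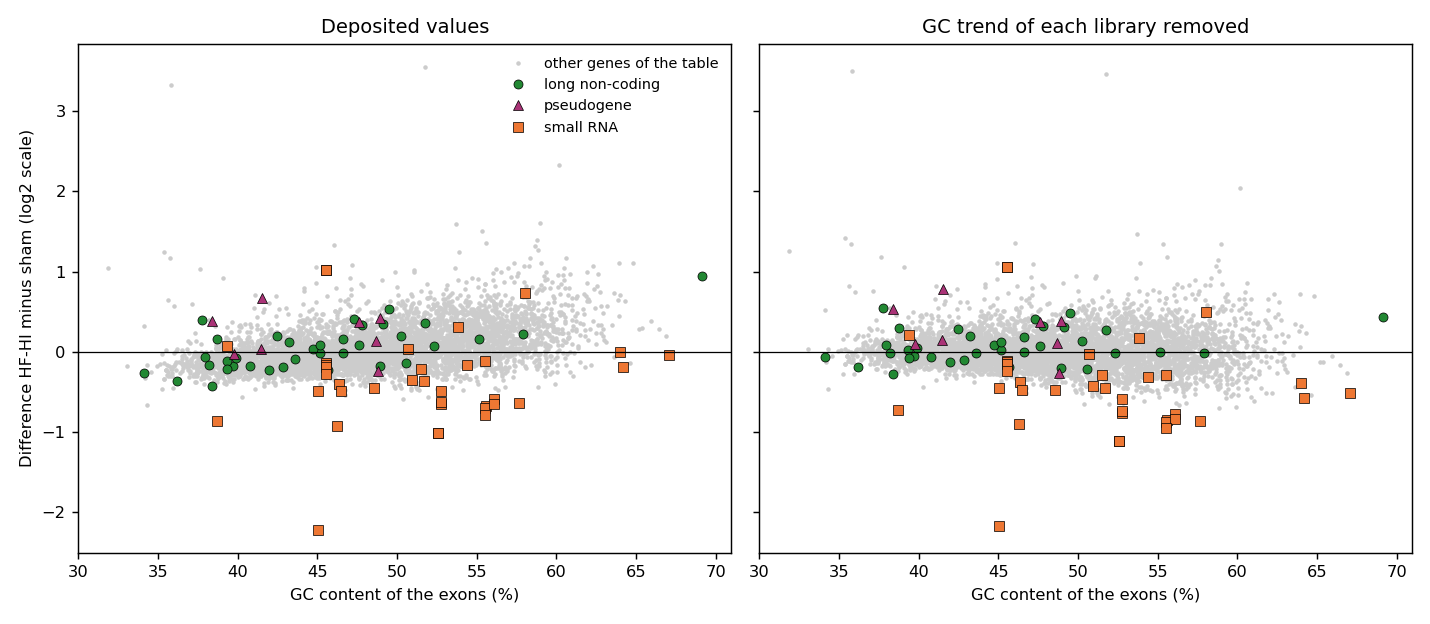
Difference between HF-HI and sham (log2 scale) against exonic GC content (%) for every gene, before (left) and after (right) removal of each library's GC trend; non-coding genes are coloured by type. Long non-coding genes follow the slope of the other genes on the left (rho 0.58), whereas small RNA genes lie mostly below 0 at every GC content in either panel.

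Library facts bear on all values. Read depth relative to the median library, estimated from the spacing of low values, ran from 0.580 to 1.26 in sham and from 0.548 to 1.64 in HF-HI libraries. The median depth was 0.864 in sham and 1.17 in HF-HI, so depth was not balanced between the groups. With depth as a covariate, 47 non-coding genes were again called, 18 higher and 29 lower, beside 65.6% of all genes (32.2% higher, 33.4% lower). At a threshold of 0.1, 54 were called, 19 higher and 35 lower, beside 72.7% of all genes (35.5% higher, 37.2% lower). HF-HI libraries 9 and 11 had the lowest depth and the lowest GC slopes of their group, and without them 17 genes were called higher and 32 lower, beside 68.7% of all genes (33.8% higher, 34.9% lower). Sham libraries 4 and 7 stood apart in U1 RNA and also had the lowest depth of their group (0.580 and 0.673). Without them 17 were called higher and 32 lower as well, beside 63.9% of all genes (31.7% higher, 32.2% lower). All 9 neuronal, 7 astrocyte and 7 oligodendrocyte markers examined were in the table, as the cortex label requires, beside 2 of 8 microglial, 2 of 6 endothelial and 1 of 5 choroid plexus markers, so that microglia (P2ry12, Tmem119 and Cx3cr1 were absent from the table) are poorly covered. The summed level of the neuronal markers was 16.09 to 16.28 in sham and 16.24 to 16.48 in HF-HI. Of these 9 markers, 6 were called, all higher (66.7%, beside 66.3% of all genes called and 32.6% higher). With the GC trend removed 5 were higher and 1 lower, and with depth as a covariate 5 and 2. Astrocyte markers had 3 higher and 1 lower of 7, and oligodendrocyte markers 2 higher and 0 lower of 7. The microglial sum was 10.53 to 10.72 in sham and 10.42 to 10.64 in HF-HI. It rests on 2 genes, of which 1 was called higher and 1 lower. In whole cortex, fewer cells of a type and less RNA per cell cannot be told apart, and the part of cell composition in the results below was not tested.

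HF-HI mice had lower levels of the U17 snoRNAs, whose sequences are given above. Snora73b had a lowest, median and highest value of 12.41, 12.61 and 12.98 in the 10 sham libraries and 11.07, 12.02 and 12.40 in the 11 HF-HI libraries. Every HF-HI library lay below every sham library, although the highest HF-HI value was close to the lowest sham value. The difference was -0.69 ± 0.12 (SE; adjusted p = 2.74e-05), a ratio of 0.62. Gm26448 read 10.17, 10.49 and 10.95 in sham and 9.51, 9.93 and 10.12 in HF-HI. Its groups did not overlap either, and it fell by 0.65 ± 0.085 (adjusted p = 8.98e-07). Snora73a read 12.11, 12.39 and 12.67 in sham and 10.78, 11.96 and 12.16 in HF-HI, so that 8 of 11 HF-HI libraries lay below the lowest sham value and the groups overlapped slightly. It fell by 0.59 ± 0.13 (adjusted p = 0.000364). Summing the copies sets aside how shared reads were divided between the summed copies, but not reads given to near-copies outside the table. Snora73b had 3 near-copies among all annotated genes, of which 1 was in the table. For Rnu3b1 the numbers were 15 and 3, for Rnu2-10 15 and 8, and for Gm22317, a U1 copy, 44 and 3. The summed U17 level was 13.48, 13.68 and 13.94 in sham and 12.18, 13.22 and 13.43 in HF-HI, with all 11 HF-HI libraries below the lowest sham library. With the GC trend removed the differences were -0.86 for Snora73b, -0.87 for Gm26448 and -0.78 for Snora73a.

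U3 copies were lower and more variable. Rnu3a read 8.08, 8.64 and 10.48 in sham and 6.66, 8.42 and 9.14 in HF-HI. In 4 sham libraries it exceeded all HF-HI libraries, 4 HF-HI libraries lay below all of sham, and the groups overlapped. Rnu3a fell by 0.93 ± 0.31 (adjusted p = 0.0119). Rnu3b1 read 9.32, 10.27 and 11.09 in sham and 8.94, 9.40 and 10.82 in HF-HI and fell by 0.65 ± 0.22 (adjusted p = 0.0116). Its identical copy Rnu3b3 fell by 0.64 (adjusted p = 0.0154) and holds no independent evidence. Rnu3b2 and Rnu3b4, which had the same value in every library, differed by -1.01 ± 0.45 and were not called (adjusted p = 0.0534). HF-HI library 10 read 4.59, the lowest value of the whole table, beside an HF-HI median of 9.41. In that library Rnu3b1 and Rnu3b3 both read 10.82, their highest HF-HI value, and the summed U3 level was 11.99, the highest of HF-HI. How reads were divided between these copies was not tested. Rnu3b2 and Rnu3b4 were called lower with the GC trend removed (-1.12, adjusted p = 0.0371) and without sham libraries 4 and 7 (adjusted p = 0.0344). The summed U3 level was 11.77, 12.19 and 13.06 in sham and 11.01, 11.72 and 11.99 in HF-HI, so 7 of 11 HF-HI libraries lay below the lowest sham library.

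The scaRNAs and the remaining snoRNAs moved the same way where they were called. Of 7 scaRNAs, of which GENCODE types Scarna10 as a snoRNA, 4 fell and none rose. Scarna10, a Cajal body RNA with both box C/D and box H/ACA parts, read 12.46, 12.78 and 13.08 in sham and 11.99, 12.25 and 12.51 in HF-HI. Nearly all HF-HI libraries, 9 of 11, were below the lowest sham library. The difference was -0.49 ± 0.080 (adjusted p = 1.21e-05). Scarna13 read 10.25, 10.51 and 10.79 in sham and 9.62, 10.08 and 10.26 in HF-HI, with 10 of 11 HF-HI libraries below all of sham, and fell by 0.49 ± 0.078 (adjusted p = 1.17e-05). Scarna6 and Gm25395, which both lie in Atg16l1 on chromosome 1, fell by 0.35 (adjusted p = 4.17e-06) and 0.46 (adjusted p = 0.000343). The other scaRNAs were not called: Gm26083 (-0.17), Scarna2 (-0.0065) and Gm22009 (0.074). With the GC trend removed, Scarna2, whose exonic GC content is 64.0%, stood at -0.40 and Gm26083 at -0.32, both called lower, and Gm22009 at 0.21, called higher. These calls depend on the correction, as small RNA genes did not follow the trend of all genes.

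Among the remaining snoRNAs, Gm24119 in Slc25a3 fell by 0.40 ± 0.10 (adjusted p = 0.00148), from a sham median of 9.84 to 9.501. Snord17, in the sorting nexin gene Snx5, fell by 0.36 ± 0.12 (adjusted p = 0.010). Snora74a fell by 0.21 ± 0.075 (adjusted p = 0.0160). Their groups overlapped in each case, and the call of Snora74a was lost without sham libraries 4 and 7 (adjusted p = 0.0757, limma). With depth as a covariate, the calls of Snora74a and Snord17 were lost (adjusted p = 0.0921 and 0.0531) and Gm22988 was called higher by 0.34. Gm23262 in Eif4g2 (-0.87 ± 0.70) and Gm22988 in Eif4a1 (0.038 ± 0.21) were not called, and Gm23262 ranged from 6.48 to 11.44 within the HF-HI group alone. Over all 20 snoRNAs and scaRNAs, 13 were lower and none higher. That is 65.0% called, near the 66.3% of all genes, of which 33.6% were lower and 32.6% higher. Once the GC trend was removed, 17 were lower and 1 higher, beside 31.0% lower and 29.2% higher of all genes. With depth as a covariate, 11 were lower and 1 higher, beside 33.4% lower and 32.2% higher of all genes.

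**Figure D3:**
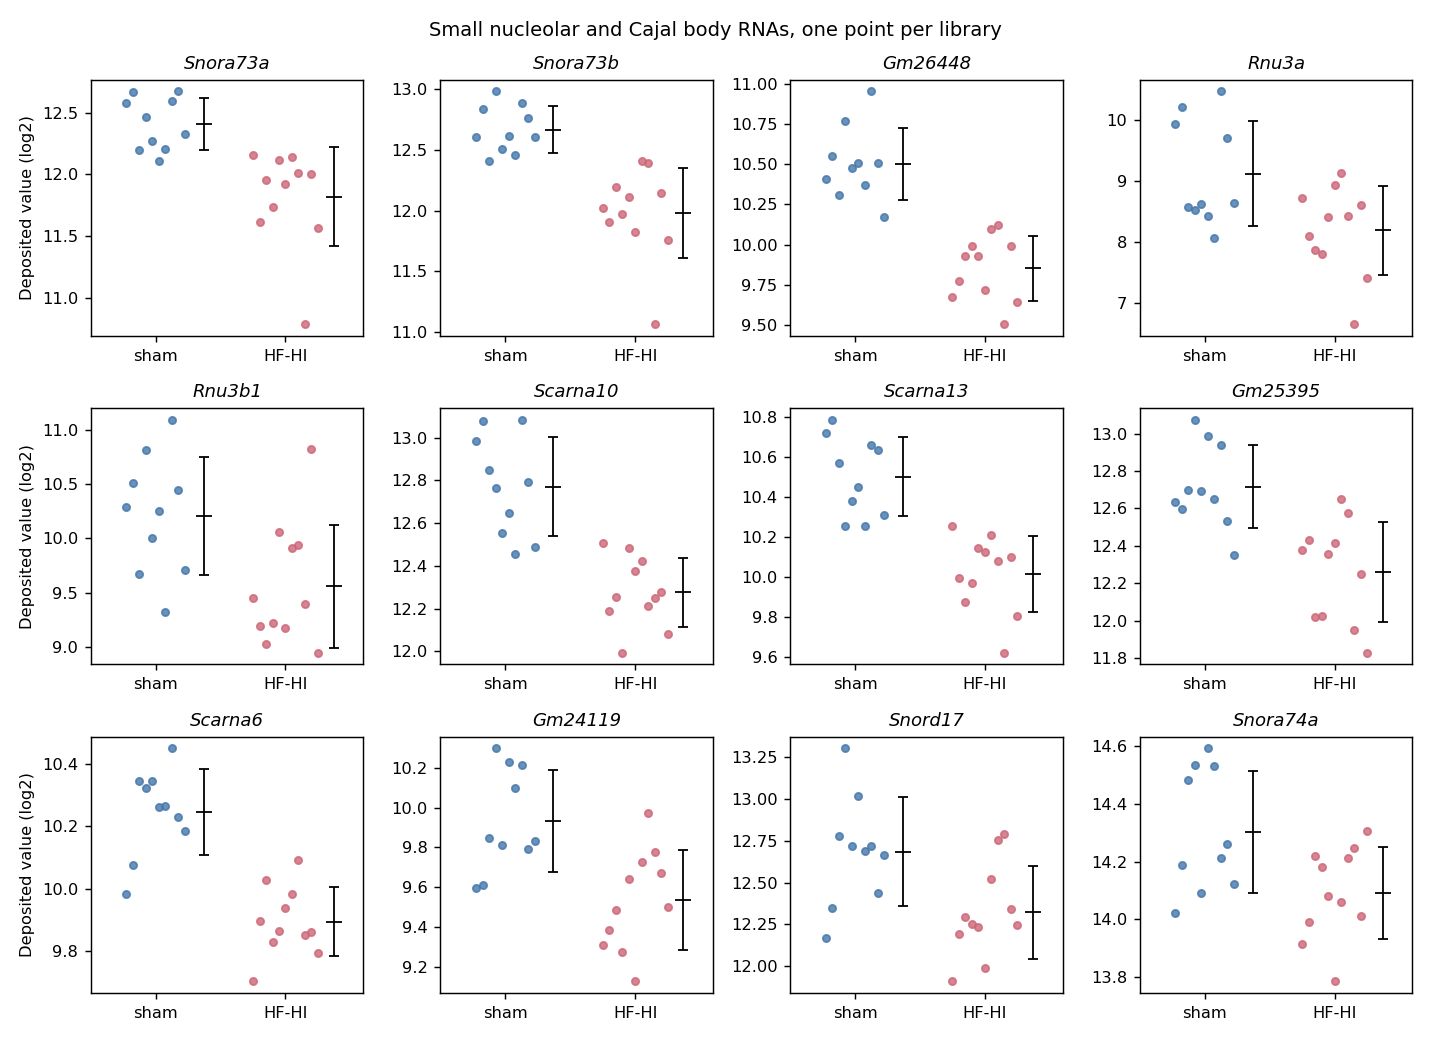
Deposited values (log2) of 12 called snoRNAs and scaRNAs, with 1 point per library and the mean and SD of each group at its right; the vertical axes do not start at 0. Snora73b and Gm26448 show no overlap between sham and HF-HI, and the other 10 RNAs overlap.

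Since most of these RNAs are cut from introns, the 9 small RNA genes that lie inside a gene of the table were set beside that gene in the same library. Gm26448 fell by more than its host Rpsa, which encodes a small-subunit ribosomal protein and differed by -0.24 ± 0.040 (adjusted p = 1.49e-05). The change of the within-library difference, Gm26448 minus Rpsa, was -0.41 (permutation test, adjusted p = 0.000380 over 19 such contrasts). Gm24119 and its host went opposite ways. Slc25a3, the mitochondrial phosphate carrier, rose by 0.13 ± 0.038 (adjusted p = 0.00385). The within-library contrast changed by -0.53 (permutation test, adjusted p = 0.00157). Atg16l1, an autophagy gene, differed by -0.16 ± 0.030 (adjusted p = 6.09e-05), and the contrast changed by -0.19 for Scarna6 (permutation test, adjusted p = 0.00952) and by -0.29 for Gm25395 (adjusted p = 0.0192, same permutation test). For Snord17 in Snx5 the contrast changed by -0.23 and was not called (permutation test, adjusted p = 0.0921), but was called with the GC trend removed (permutation test, adjusted p = 0.0138). The hosts Eif4a1 (-0.29, adjusted p = 2.51e-05) and Eif4g2 (0.12, adjusted p = 0.00307), translation initiation genes, changed in opposite directions while their snoRNAs were not called. Kpna4, the host of Gm22009, and Rock1, in whose span the U1 copy Gm26244 lies, differed by 0.12 (adjusted p = 0.0546) and -0.072 (adjusted p = 0.112). With the GC trend removed they stood at 0.24 and 0.087, both called. The contrasts of these 4 small RNA genes with the genes they lie in were not called, with changes of 0.33 (Gm22988), -0.99 (Gm23262), -0.043 (Gm22009) and -0.63 (Gm26244).

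The proteins that bind snoRNAs were mostly outside the table. Of 8 core proteins of snoRNA particles, 2 were measured. Nop56, of box C/D particles, rose by 0.36 ± 0.048 (adjusted p = 8.69e-07) without overlap of the groups, and Snu13 differed by 0.066 (adjusted p = 0.260). Of 16 factors of the nuclear exosome, which trims snoRNA ends, 2 were measured. The helicase Mtrex rose by 0.31 ± 0.080 (adjusted p = 0.00166), and Zfc3h1 differed by -0.0037 (adjusted p = 0.938).

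Of 9 copies of the spliceosomal U2 RNA, 6 were called lower and none higher. That is 66.7% called, near the 66.3% of all genes (33.6% lower, 32.6% higher). All 9 are near-copies of each other, so that reads could be divided among any of them, and among further near-copies outside the table. Rnu2-10 read 14.78, 15.08 and 15.38 in sham and 14.73, 14.87 and 15.05 in HF-HI. No HF-HI library exceeded the sham median, and the groups overlapped. It fell by 0.20 ± 0.056 (adjusted p = 0.00393), and its identical copies Gm24950 and Gm23849 fell by 0.17 and 0.17, while Gm23971 (-0.15) was not called. Gm25939 and Gm25360 fell by 0.27 (adjusted p = 7.37e-05) and 0.49 (adjusted p = 0.00124). Gm24497 showed the largest difference of all 81 genes, -2.22 ± 0.78 (adjusted p = 0.0158), from 10.90, 14.61 and 15.43 in sham to 8.97, 11.35 and 14.99 in HF-HI. The spread covers several units within each group, sham libraries 4, 7 and 10 lay far below the other sham libraries, and 2 HF-HI libraries exceeded the sham median. Gm23444 and Gm23472, identical to each other, differed by 1.02 and 1.02 and were not called (adjusted p = 0.0939 and 0.0921), although both were called higher without sham libraries 4 and 7. Gm24497 exceeded Gm23472 in 7 of 10 sham and 2 of 11 HF-HI libraries. The sum of these 3 copies read 15.33, 15.49 and 15.85 in sham and 14.996, 15.45 and 15.69 in HF-HI, a difference of -0.079. The sum of all 9 U2 copies read 17.33, 17.53 and 17.67 in sham and 17.11, 17.37 and 17.51 in HF-HI, a difference of -0.17, with 4 of 11 HF-HI libraries below the lowest sham library.

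U1 RNA, which recognises the start of introns, stood apart in sham libraries 4 and 7. The summed level of its 4 copies was 17.02 in sham library 4 and 16.92 in sham library 7, and between 13.09 and 14.16 in the other 19 libraries. Each of the 4 copies stood apart in these libraries, with Gm22513 at 16.73 and 16.60 against 12.92 to 13.96 elsewhere. No U1 copy was called, with differences of -0.79 (Gm25679), -0.70 (Gm26244), -0.65 (Gm22513) and -0.12 (Gm22317). The difference of the summed level was -0.66, and 0.0056 without sham libraries 4 and 7. Gm22317 and Gm26244 read 4.96 and 5.35 in sham library 2, their lowest values over all libraries. Gm22317 is identical in sequence to Gm25679, which read 10.44 in that library, its highest value outside sham libraries 4 and 7. Reads could be divided between these identical copies, so their separate values and differences need not be levels of separate genes.

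**Figure D4:**
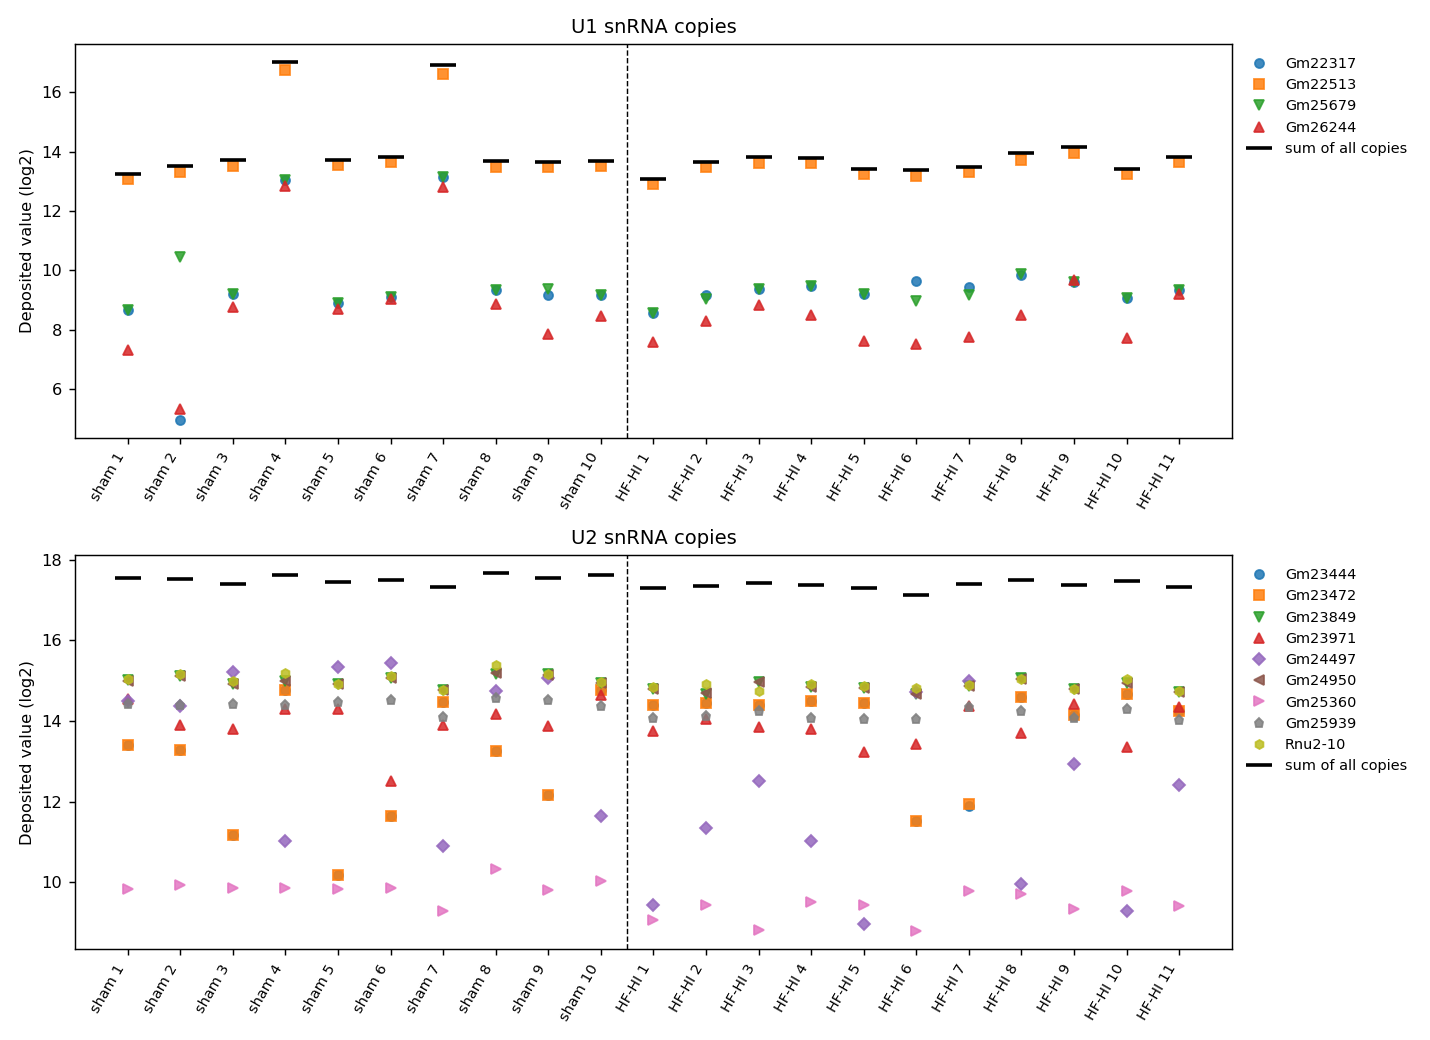
Deposited values (log2) of the 4 U1 copies (top) and 9 U2 copies (bottom) in each library, with the log2 of their summed level as a black bar; the dashed line separates sham from HF-HI. The U1 sum is 17.02 and 16.92 in sham 4 and 7 and at most 14.16 elsewhere, while the U2 sum stays between 17.11 and 17.67 although single copies vary by several units.

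The remaining small RNAs were not called. 7SK RNA, which holds the elongation kinase P-TEFb inactive, was measured as Rn7sk and as Gm24447, whose first 241 bases are identical to it. Rn7sk read 9.499, 11.47 and 13.04 in sham and 9.48, 12.33 and 13.502 in HF-HI, a difference of 0.73 ± 0.51 (adjusted p = 0.205). The libraries of each group spread over more than 3 units, and the groups overlapped almost fully. Without HF-HI libraries 9 and 11, where Rn7sk was lowest in its group, it was called higher by 1.16 (adjusted p = 0.0313). These libraries also had the lowest depth of their group. With depth as a covariate, Rn7sk differed by 0.060 (adjusted p = 0.900) and Gm24447 by 0.069 (adjusted p = 0.722), both from limma. Gm24447 differed by 0.30 ± 0.19 (adjusted p = 0.168), and the summed level by 0.34. Rpph1, the RNA of RNase P, which cuts transfer RNA precursors, read 15.24, 16.41 and 16.56 in sham and 15.69, 16.24 and 16.54 in HF-HI and differed by -0.049 ± 0.12 (adjusted p = 0.741). Rmrp, the RNA of RNase MRP, which takes part in ribosomal RNA processing, differed by -0.19 ± 0.13 (adjusted p = 0.208). Rmrp and Rpph1 have a GC content of 64.2% and 67.1%, and with the GC trend removed they were called lower, with differences of -0.58 (adjusted p = 5.57e-05) and -0.52 (adjusted p = 0.000433). That trend was fitted over all genes and was not seen among small RNA genes, so both calls depend on the correction.

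HF-HI mice had higher levels of the adjacent nuclear RNAs Malat1 and Neat1 on chromosome 19. Malat1 (chr19:5795690-5802672, minus strand), a nuclear RNA of splicing speckles, read 17.17, 17.29 and 17.39 in sham and 17.41, 17.48 and 17.65 in HF-HI. All 11 HF-HI libraries lay above all 10 sham libraries, by a narrow margin. It rose by 0.19 ± 0.032 (adjusted p = 2.32e-05), and by 0.28 with the GC trend removed, but quantile normalization, which fixes the value of each rank, turned it to -0.11 (adjusted p = 8.15e-05). Neat1 (chr19:5824708-5845478, minus strand), the scaffold of paraspeckles, read 9.94, 10.19 and 10.37 in sham and 10.15, 10.68 and 10.81 in HF-HI. The highest sham value was exceeded by 10 of 11 HF-HI libraries. Neat1 rose by 0.41 ± 0.070 (adjusted p = 2.56e-05), a ratio of 1.33, and by 0.41 with the GC trend removed.

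Of 14 genes for paraspeckle proteins, 11 were in the table, and 7 rose and 1 fell, with a median difference of 0.15. The 8 called of 11 are 72.7%, near the 66.3% of all genes, and with the GC trend removed 9 were higher and 1 lower, with a median of 0.24. Nono, a core paraspeckle protein, rose by 0.69 ± 0.077 (adjusted p = 8.50e-08), and Hnrnpa1, an RNA-binding protein of the same bodies, by 0.79 ± 0.10 (adjusted p = 8.82e-07), both without overlap. Matr3, a nuclear matrix RNA-binding protein, fell by 0.28 ± 0.033 (adjusted p = 1.70e-07) and stood at -0.15, still called, with the GC trend removed. Sfpq, the partner of Nono, differed by 0.0090 (adjusted p = 0.852). Gm12940, a processed transcript overlapping Sfpq on the same strand, differed by 0.16 ± 0.076 (adjusted p = 0.0723), and its contrast with Sfpq changed by 0.15 (permutation test, adjusted p = 0.206). Gm12940 was called higher once the GC trend was removed (0.30, adjusted p = 0.000682), and the contrast changed by 0.27 (permutation test, adjusted p = 0.00950). It was also called higher with depth as a covariate (adjusted p = 0.0163).

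The 3 maternally expressed transcripts of the imprinted Dlk1-Dio3 region on chromosome 12, all on the plus strand, split into a higher Meg3 and lower Rian and Mirg. Meg3 (chr12:109541001-109571726), a long RNA abundant in neurons, read 15.14, 15.22 and 15.56 in sham and 15.24, 15.44 and 15.61 in HF-HI. Every HF-HI library exceeded the sham median, but the highest sham library lay within the HF-HI range. It rose by 0.19 ± 0.048 (adjusted p = 0.00113). Rian (chr12:109603940-109661716), which holds 13 snoRNA and 4 microRNA genes, read 13.98, 14.11 and 14.16 in sham and 13.88, 13.91 and 13.99 in HF-HI. Only 1 HF-HI library reached the sham range. It fell by 0.17 ± 0.026 (adjusted p = 9.00e-06). Mirg (chr12:109729764-109749460), which holds 14 microRNA genes, read 9.24, 9.45 and 9.60 in sham and 9.004, 9.34 and 9.49 in HF-HI, with overlapping groups, and fell by 0.15 ± 0.051 (adjusted p = 0.0127).

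Within libraries, Meg3 minus Rian changed by 0.36 (permutation test, adjusted p = 0.000253) and Meg3 minus Mirg by 0.34 (permutation test, adjusted p = 0.000380). Rian minus Mirg changed by -0.018 and was not called (permutation test, adjusted p = 0.773). Rian has a GC content of 38.2% and Meg3 of 50.2%. With the GC trend removed Rian stood at -0.020 and was not called (adjusted p = 0.503), Meg3 stood at 0.14 and Mirg at -0.21, both called, and the change of Meg3 minus Rian was 0.16 (permutation test, adjusted p = 0.0131). In the same setting Rian minus Mirg changed by 0.19 (permutation test, adjusted p = 0.000760). Gm26945, a lincRNA inside the span of Rian, differed by -0.071 and was not called. Of 24 imprinted protein-coding genes examined, 14 were in the table, and 5 rose and 4 fell, or 9 of 14 (64.3%) beside 66.3% of all genes. Removing the GC trend left 4 higher and 3 lower. Snrpn, a splicing protein gene expressed from the paternal copy, rose by 0.38 ± 0.071 (adjusted p = 5.92e-05). Ube3a, a ubiquitin ligase expressed from the maternal copy in neurons, fell by 0.25 ± 0.034 (adjusted p = 1.48e-06), and stood at -0.059 without a call once the GC trend was removed.

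Mir124a-1hg, the host transcript of a neuronal microRNA, read 9.42, 9.90 and 10.11 in sham and 9.85, 10.25 and 10.33 in HF-HI. The highest sham value was exceeded by 9 of 11 HF-HI libraries. It rose by 0.36 ± 0.078 (adjusted p = 0.000321), and by 0.27 with the GC trend removed. Mature microRNAs are not measured by these libraries. Other hosts of microRNA genes were Zswim6, which fell (its values are with the processed transcripts), C130071C03Rik, which fell by 0.12 (adjusted p = 0.0126) and stood at 0.016 with the GC trend removed, and Gm3764 (0.075), 3110039I08Rik (0.12) and A330023F24Rik (0.031), which were not called. Once the GC trend was removed, 3110039I08Rik was called higher (0.20, adjusted p = 0.0243). Of 13 genes of the microRNA pathway, 10 were in the table, and 6 rose and 1 fell, with a median difference of 0.27. The 7 called of 10 lie near the 66.3% of all genes, and with the GC trend removed 8 were higher and 1 lower. Drosha, which cuts microRNA precursors in the nucleus, rose by 0.39 ± 0.051 (adjusted p = 7.57e-07). Ago2, which carries the mature microRNA, rose by 0.44 ± 0.049 (adjusted p = 8.19e-08). Xpo5, the exporter of the precursors, fell by 0.069 ± 0.027 (adjusted p = 0.0258) and stood at -0.11 with the GC trend removed. The call of Xpo5 was lost without HF-HI libraries 9 and 11 and with a replicate block (adjusted p = 0.0582 and 0.104, limma). Dgcr8, the partner of Drosha, differed by -0.076 (adjusted p = 0.0530).

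Of the 6 antisense genes, 2 rose and 2 fell. The libraries were stranded, but whether the counting used strand is not given in the sources used here, and if it did not, reads of an antisense gene and of its partner cannot be told apart where they overlap. Rab10os, opposite to the trafficking gene Rab10, read 8.503, 8.79 and 9.18 in sham and 8.95, 9.19 and 9.29 in HF-HI. Every HF-HI library exceeded the sham median. It rose by 0.35 ± 0.069 (adjusted p = 0.000140), while Rab10 differed by -0.037 ± 0.034 (adjusted p = 0.338), and the within-library contrast changed by 0.39 (permutation test, adjusted p = 0.000253). 4933431E20Rik, opposite to the glutathione transferase gene Gstm5, read 9.28, 9.40 and 9.65 in sham and 9.56, 9.76 and 10.02 in HF-HI. The highest sham library was exceeded by 8 of 11 HF-HI libraries. It rose by 0.33 ± 0.053 (adjusted p = 1.48e-05), whereas Gstm5 fell by 0.44 ± 0.048 (adjusted p = 6.10e-08). The contrast of this antisense pair changed by 0.77 without overlap of the groups (permutation test, adjusted p = 0.000253).

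Tug1, a neuronal long RNA reported to bind Polycomb repressive complex 2 (PRC2), read 10.92, 11.11 and 11.20 in sham and 10.73, 10.84 and 11.02 in HF-HI. No HF-HI library reached the sham median, and 9 of 11 lay below all of sham. It fell by 0.23 ± 0.038 (adjusted p = 1.74e-05), beside a difference of 0.069 (adjusted p = 0.0747) for Morc2a on the opposite strand. The contrast of Tug1 with Morc2a changed by -0.30 (permutation test, adjusted p = 0.000489). After removal of the GC trend Tug1 stood at -0.13 (adjusted p = 0.00112) and the contrast changed by -0.16 (permutation test, adjusted p = 0.00579). Dlx6os1, a regulatory RNA of interneurons, read 8.73, 8.999 and 9.08 in sham and 8.59, 8.70 and 8.89 in HF-HI and fell by 0.21 ± 0.052 (adjusted p = 0.00101). Its call was lost with the GC trend removed (-0.080, adjusted p = 0.135). A830036E02Rik (-0.023) and E130307A14Rik (-0.020) were not called. Of 7 genes of PRC2, 5 were in the table: Ezh1, a catalytic subunit, rose by 0.14 (adjusted p = 0.0354), Suz12, a core subunit, fell by 0.22 (adjusted p = 6.92e-05), and Jarid2, Rbbp4 and Rbbp7 were not called. The call of Ezh1 was lost with the GC trend removed (0.098, adjusted p = 0.106), with depth as a covariate and without sham libraries 4 and 7, and held in 13 of 21 fits that left out a single library. Suz12 stood at -0.11, still called, with the GC trend removed.

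**Figure D5:**
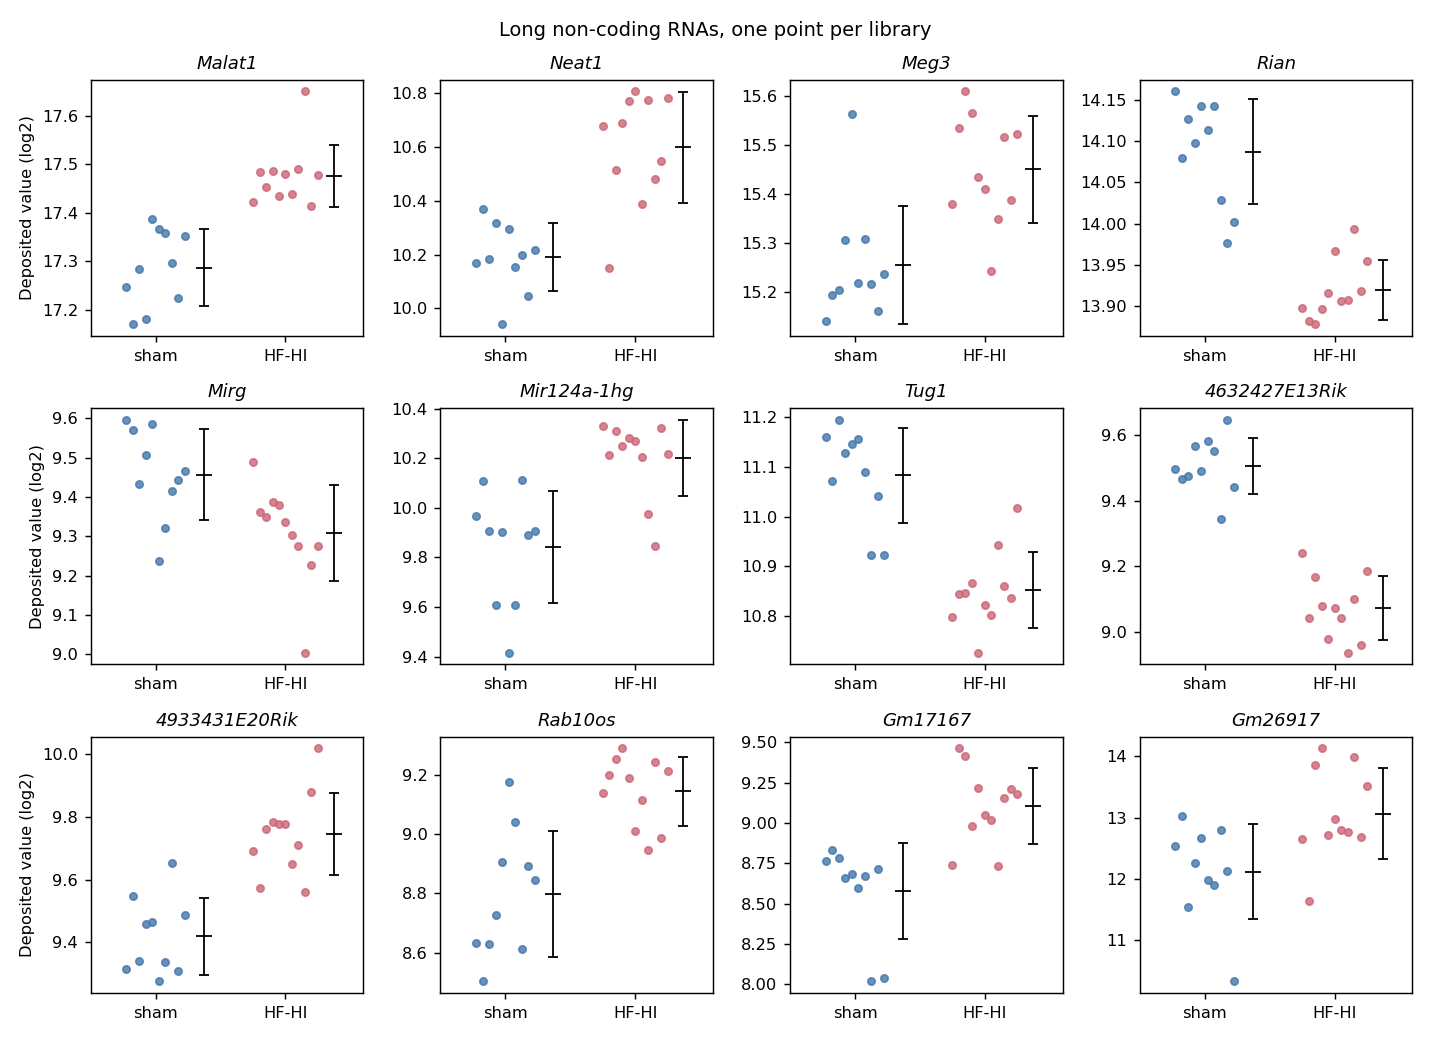
Deposited values (log2) of 12 called long non-coding RNAs, with 1 point per library and the mean and SD of each group at its right; the vertical axes do not start at 0. Malat1 and 4632427E13Rik show no overlap between sham and HF-HI, Meg3 rises while Rian and Mirg fall, and Gm26917 spreads over more than 2 units in each group.

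Among the other lincRNAs, 4632427E13Rik, on chromosome 7, had groups that did not overlap. It read 9.34, 9.49 and 9.65 in sham and 8.94, 9.07 and 9.24 in HF-HI. All HF-HI libraries lay below all sham libraries, and it fell by 0.43 ± 0.040 (adjusted p = 8.15e-09). Once the GC trend was removed, it stood at -0.29 and was still called. AI504432 (-0.26), Dbpht2 (-0.19) and Cep83os (-0.19) fell as well. Without the GC trend Cep83os was still called (-0.11), and AI504432 (-0.065) and Dbpht2 (-0.056) were not. Tmem250-ps rose by 0.22 and stood at -0.014 without that trend. Miat, a nuclear RNA of neurons, read 12.07, 12.33 and 12.51 in sham and 12.03, 12.53 and 12.72 in HF-HI and was not called (0.15 ± 0.072, adjusted p = 0.0657), but was called higher by 0.20 without HF-HI libraries 9 and 11 (adjusted p = 0.00722). Miat stood at -0.011 with the GC trend removed and at 0.12 with depth as a covariate, not called in either (adjusted p = 0.878 and 0.171, limma). 1700020I14Rik (-0.083), 9530059O14Rik (0.081) and Gm26870 (-0.36) were not called either.

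Gm26917, on chromosome 17, ends 11 bases before an annotated ribosomal RNA gene. Whether ribosomal RNA left after depletion contributes to its count was not tested. It read 10.33, 12.20 and 13.03 in sham and 11.64, 12.80 and 14.13 in HF-HI. Its SD within each group was the largest of the 36 long non-coding genes, and 4 HF-HI libraries exceeded all of sham. It rose by 0.95 ± 0.30 (adjusted p = 0.00750). The neighbouring Gm42418, left out above, differed by 2.33 (adjusted p = 0.0105). The exonic GC content of Gm26917 is 69.1%, the highest of the 81 genes, and with the GC trend removed it stood at 0.43 and was not called (adjusted p = 0.161).

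Of the processed transcripts, Gm17167 rose most. It read 8.02, 8.68 and 8.84 in sham and 8.74, 9.15 and 9.46 in HF-HI, with 9 of 11 HF-HI libraries above all of sham. The difference was 0.53 ± 0.11 (adjusted p = 0.000154). 1810026B05Rik, which overlaps the chromatin remodeller gene Chd2 on the same strand, rose by 0.39 ± 0.076 (adjusted p = 0.000108), and Chd2 by 0.17 (adjusted p = 0.00354), with a change of 0.22 in their contrast (permutation test, adjusted p = 0.0174). Cct6a, named for a subunit of the chaperonin that folds actin and tubulin, read 9.497, 9.62 and 9.84 in sham and 9.27, 9.40 and 9.47 in HF-HI. The groups did not overlap, and it fell by 0.22 ± 0.040 (adjusted p = 4.68e-05). Zswim6 fell by 0.17 (adjusted p = 0.00367). Gas5, a host of 10 snoRNA genes whose spliced RNA is degraded by nonsense-mediated decay, read 9.89, 10.27 and 10.44 in sham and 9.99, 10.07 and 10.51 in HF-HI and was not called (-0.090 ± 0.073, adjusted p = 0.282). Of genes of that decay pathway, Upf2 (0.23) and Smg5 (0.11) rose, Smg1, the kinase of the pathway, fell by 0.16, and Upf1 (0.041) and Smg6 (0.093) were not called. After removal of the GC trend, Smg5 (-0.022) and Smg1 (-0.062) lost their calls and Upf1 (-0.19) was called lower. 1500004A13Rik (0.077) was not called.

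The sense intronic genes followed opposite directions. Gm10855, inside the splicing regulator gene Celf2, read 8.67, 8.83 and 8.93 in sham and 8.44, 8.60 and 8.80 in HF-HI and fell by 0.18 ± 0.044 (adjusted p = 0.000957), while Celf2 differed by 0.061 (adjusted p = 0.177) and was called higher (0.16) with the GC trend removed. The contrast of Gm10855 with Celf2 changed by -0.24 (permutation test, adjusted p = 0.000380). Without the GC trend Gm10855 stood at -0.067 and was not called. B930095G15Rik, inside Farp1, read 8.83, 9.05 and 9.23 in sham and 8.96, 9.27 and 9.54 in HF-HI and rose by 0.16 ± 0.063 (adjusted p = 0.030), beside 0.30 (adjusted p = 2.23e-06) for Farp1 itself, which stood at 0.13 with the GC trend removed. Its call was lost without sham libraries 4 and 7 (adjusted p = 0.0686, limma). The change of B930095G15Rik minus Farp1 was -0.14 (permutation test, adjusted p = 0.00952) and turned to 0.044 with the GC trend removed.

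Of the 8 pseudogenes, 6 are near-copies of a gene in the table, so their values can hold reads of that gene. Gm10222, identical to the mitochondrial gene mt-Nd4l over its whole length, read 8.19, 8.71 and 9.66 in sham and 8.84, 9.27 and 11.27 in HF-HI and rose by 0.68 ± 0.26 (adjusted p = 0.0252). Without HF-HI libraries 9 and 11 it stood at 0.47 and lost its call (adjusted p = 0.0628). mt-Nd4l, a subunit of respiratory complex I, rose by 0.71 ± 0.18 (adjusted p = 0.00179). Gm13341, 95.9% identical to mt-Co2 of complex IV, rose by 0.38 (adjusted p = 1.00e-05), and mt-Co2 by 0.32 (adjusted p = 4.38e-06). Gm13340, 97.6% identical to mt-Co1, differed by -0.032, and mt-Co1 by 0.028, neither called, although mt-Co1 was called higher (0.16) with the GC trend removed. For each of these mitochondrial copies the differences of pseudogene and parent lay within 0.1 of each other. Gm4202 is 99.9% identical to Ywhaz, which encodes a 14-3-3 protein. Gm4202 rose by 0.37 ± 0.090 (adjusted p = 0.000956) and Ywhaz by 0.15 (adjusted p = 0.00426). Gm15459, a near-copy of the chaperone gene Hspa8 and of 9 genes that are not in the table, fell by 0.24 (adjusted p = 0.0476) and Hspa8 by 0.21 (adjusted p = 9.06e-05), but the call of Gm15459 was lost in 15 of 21 fits that left out a single library. Gm21092, which shares sequence with the cadherin gene Cdh11 and the pseudogenes 2610005L07Rik and 6820431F20Rik, rose by 0.42 (adjusted p = 0.000504), whereas Cdh11 fell by 0.13 (adjusted p = 0.0229) and stood at -0.039, not called, with the GC trend removed. 6820431F20Rik (0.034) and 2610005L07Rik (0.13) were not called, although 2610005L07Rik was called higher with depth as a covariate (adjusted p = 0.00176) and without sham libraries 4 and 7 (adjusted p = 0.00816).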

How the data were processed

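The authors sequenced stranded total RNA libraries, aligned reads to mm10 with STAR, assigned them with eXpress and used DESeq2 for normalization. The versions of STAR and eXpress and the annotation are not given in the sources used here. The deposited table holds variance-stabilized log2 values per Ensembl gene and library. All 21 columns were matched to a library, and 0 were left unused. The total depth is unknown; relative depth was estimated from the spacing of low values. The spread between mice limits precision (median within-group SD of 0.104 over all genes). Labels do not say that replicates came from separate litters or cages.

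HF-HI was set against sham in R 4.3.3 by limma 3.58.1, a linear model per gene with variances moderated along the mean level. Tests were two-sided, with p-values adjusted after Benjamini-Hochberg over all 5544 genes and a threshold of 0.05. Python 3.11.15 with numpy 2.4.6, pandas 2.3.3, scipy 1.17.1 and matplotlib 3.10.9 was used for summaries. Within-library contrasts (19, two-sided) were tested with 100000 permutations of the libraries. GC trends were removed per library with a lowess curve of span 0.3, which also removes biology that follows GC content. Near-copies were found with BLAST+ 2.17.0 (identity of at least 90%, coverage of at least 50%). Host genes were assigned on the same strand from GENCODE vM21. Summed family levels are log2 of the summed 2-to-the-power values.

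Named members were those on a list of known non-coding RNAs (16 of its 61 entries were members), the 10 largest called differences, and the largest called difference of each type in each direction, with the genes that overlap them. All other members, the families, the library exclusions, the depth covariate and the contrasts were named or chosen after their values were seen. The members and lists were chosen with earlier results of these data known. Other alternatives were a threshold of 0.1, no trend, the Wilcoxon rank-sum test, median centring, quantile normalization, leaving out the lowest quartile (25% of genes), a replicate block, and leaving out each library. Part of the list of decay genes is not reported here.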

Additional observations from a re-analysis of the deposited data

Results flagged for a closer look

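In the sham group, 8 of the 81 genes had a library farther from its neighbour than Dixon's 95% critical value for 10 samples; chance flags about 1 in 20 groups, and HF-HI, with 11 libraries, was not examined. Meg3 was highest in sham library 5, at 15.56 beside a next value of 15.31. Rpph1 was lowest in sham library 10, at 15.24 beside 16.20. Gm23971, a U2 copy, was lowest in sham library 6, at 12.52 beside 13.80. Gm26083, a scaRNA, was highest in sham library 8, at 9.88 beside 9.35. The U2 copies Gm25939 and Gm25360 were lowest in sham library 7, at 14.09 and 9.29 beside 14.38 and 9.80. The identical U3 copies Rnu3b2 and Rnu3b4 were lowest in sham library 4, at 8.53 beside 9.55. In that library the U3 copies Rnu3b1 and Rnu3b3 both read 10.81. The calls of Meg3, Gm25939 and Gm25360 were kept when each library was left out in turn.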

How the results depend on the processing

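The number of non-coding genes called, 47 (15 higher, 32 lower), stayed within 1.5 times under every alternative run, and all 45 called genes other than Gm15459 and B930095G15Rik kept their call when each library was left out in turn. Leaving out each library gave 45 to 51 called, 14 to 18 higher and 31 to 33 lower. The replicate numbers did not pair the libraries, with correlations of same-numbered deviations from -0.31 to 0.36 and 0 of 10 sham libraries closest to their own number; the replicate block gave 50 called (15 higher, 35 lower).

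Calls by type moved more, mostly from small counts. For small RNA genes called higher, 0 became 2 at a threshold of 0.1 and without sham libraries 4 and 7, and 1 with the GC trend removed (with or without the block), with depth as a covariate and without HF-HI libraries 9 and 11. With the GC trend removed, lower lincRNAs went from 6 to 3, and to 2 with the block, where higher lincRNAs went from 6 to 3; lower antisense genes went from 2 to 1, higher processed transcripts from 2 to 4, and lower sense intronic genes from 1 to 0. Leaving out the lowest quartile removed genes from the test and gave 1 higher and 1 lower antisense gene, 0 higher processed transcripts, 0 lower sense intronic genes and 0 lower pseudogenes. B930095G15Rik, the sense intronic gene called higher, was lost (0) with the Wilcoxon test, median centring, quantile normalization and without sham libraries 4 and 7. Gm15459, the pseudogene called lower, was lost (0) with depth as a covariate and without either pair of libraries. Leaving out each library gave 0 to 2 small RNA genes higher and 19 to 21 lower, 6 to 8 lincRNAs higher and 6 to 7 lower, 0 to 1 sense intronic genes higher, 0 to 1 pseudogenes lower, 4 to 5 pseudogenes higher, and 2 to 3 processed transcripts higher.

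Of the called genes, the sign reversed for Malat1 with quantile normalization (-0.11), C130071C03Rik with the GC trend removed (0.016; 0.028 with the block) and Tmem250-ps (-0.014; -0.018). Among genes that were not called, the GC correction without and with the block gave 0.097 and 0.099 for Gm13340, -0.030 and -0.080 for Gm22988, 0.044 and 0.043 for 1700020I14Rik, 0.022 and 0.00042 for E130307A14Rik, -0.024 and -0.032 for Gm3764, -0.011 and -0.017 for Miat, and 0.079 and 0.090 for Gm26945. Median centring gave -0.018 for 6820431F20Rik, -0.014 for Gm22988 and -0.021 for A330023F24Rik, and quantile normalization -0.030 for 6820431F20Rik. Gm22988 read -0.0085 with the replicate block and -0.13 without HF-HI libraries 9 and 11. With depth as a covariate, E130307A14Rik read 0.027, Scarna2 0.068, Gm26244 0.059 and Gm22317 0.28; without sham libraries 4 and 7, Scarna2 read 0.078, Gm26244 0.25 and Gm22317 0.78. With the GC trend removed, B930095G15Rik minus Farp1 turned to 0.044 and Rian minus Mirg to 0.19. Leaving out single libraries reversed genes that were not called, with ranges of -0.071 to 0.12 for Gm22988, -0.061 to 0.051 for Scarna2, -0.62 to 0.29 for Gm22317, -0.050 to 0.0019 for A830036E02Rik and -0.16 to 0.0063 for Rpph1. The cause of these changes was not tested. Low counts are compressed on this scale, so differences of weakly expressed genes are understated.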
